A study of Mus musculus with 10 samples.

Results

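Transcripts of plasma protein genes that are best known from the liver were followed in the terminal ileum of stressed and control mice. The set was named by 8 gene symbols, Ttr, Rbp4, Alb, Hp, Trf, Serpina1b, Cpn1 and Cp, and for each gene the brightest probe set, by mean over the 10 arrays, was used. A probe set naming the gene alone was found for 7 of the 8, out of 13666 genes measured. The remaining gene, Trf, shares its probe set with Srprb, a receptor subunit of protein secretion, so that row cannot be assigned to either gene. The 8 genes were chosen with the values of this comparison in view, so their differences between stressed and control mice are given as a description, with no test.

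Each of the 10 samples was terminal ileum of 1 male C57BL/6JJmsSlc mouse (7 weeks old) on its own Affymetrix mouse array, from 5 stressed and 5 unstressed control mice. The stressed mice had met an aggressive male of the ICR strain in a subchronic mild social defeat paradigm of 10 days, with physical contact of 5 min on the first day that was cut by 0.5 min daily to 0.5 min on the last. Stressed and control mice alike were first housed singly and received AIN-93G as their food, and tissue was collected after a fast of 3 h. The labels record no separation of the gut wall into layers. Fewer cells of a type and less RNA per cell cannot be told apart in such tissue.

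Plasma proteins of this kind are made in bulk by hepatocytes under transcription factors such as HNF1, HNF4 and C/EBP, several of which also act in the intestinal epithelium. They carry ligands in blood (transthyretin for thyroid hormone and the retinol-binding protein complex, albumin for fatty acids, transferrin for iron, haptoglobin for free haemoglobin), inhibit proteases (alpha-1-antitrypsin, from the Serpina1 genes), or act as enzymes (carboxypeptidase N on kinins and complement peptides, ceruloplasmin on iron). Many of these genes are also transcribed outside the liver, for example alpha-1-antitrypsin in intestinal epithelium and Rbp4 in fat.

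Mice carry a cluster of Serpina1 genes that arose by duplication, and most of the probe sets for them carry the suffix of probes that may cross-hybridise. The likeness of these copies was read from the sequence upstream of the annotated start and not from their transcripts. The 250 bases before the start of Serpina1b and of Serpina1c, the copies that have a probe set of their own above the filter floor described below, and of Cpn1 follow from RefSeq (GRCm38.p6, minus strand, 5′ to 3′), with each match to GTTAAT or its reverse complement ATTAAC in capitals. The windows lie at chr12:103738190-103738439 for Serpina1b, chr12:103904951-103905200 for Serpina1c and chr19:43986521-43986770 for Cpn1. The annotated Cpn1 gene spans chr19:43956307-43986551, so the last bases of its window lie within the gene.
Serpina1b: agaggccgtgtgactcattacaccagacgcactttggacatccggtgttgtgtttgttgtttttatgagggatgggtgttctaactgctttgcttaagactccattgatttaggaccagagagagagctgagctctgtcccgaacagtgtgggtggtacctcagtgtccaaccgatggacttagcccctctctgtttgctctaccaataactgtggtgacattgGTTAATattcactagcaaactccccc
Serpina1c: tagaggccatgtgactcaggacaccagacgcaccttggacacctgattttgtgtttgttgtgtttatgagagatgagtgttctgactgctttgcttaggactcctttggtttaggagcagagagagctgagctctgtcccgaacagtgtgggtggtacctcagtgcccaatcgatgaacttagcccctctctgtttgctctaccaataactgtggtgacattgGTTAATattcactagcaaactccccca
Cpn1: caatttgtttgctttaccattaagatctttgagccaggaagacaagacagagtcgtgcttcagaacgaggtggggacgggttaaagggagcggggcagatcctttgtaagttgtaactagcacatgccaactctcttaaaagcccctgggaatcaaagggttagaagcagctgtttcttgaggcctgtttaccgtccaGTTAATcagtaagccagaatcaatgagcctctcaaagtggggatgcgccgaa
Between the 5 genes Serpina1a to Serpina1e, the aligned part of these windows (189 to 250 bases) was identical at 91.4% to 97.0% of positions over 10 pairs, and 91.6% for the pair printed here. GTTAAT, searched on both strands as the half-site of the liver and gut factor HNF1, occurred once in the window of each of the 5 Serpina1 genes, once in those of Cpn1 and Alb, in 1 of 2 windows of Cp and in 0 of 2 windows of Rbp4. It occurred in 6.43% of the 32851 promoter windows of this length in the table. The full HNF1 palindrome, within which the half-site lies (0.00913% of windows), the HNF4 repeat CAAAGTCCA (0.384%) and the C/EBP palindrome TTGCGCAA (0.164%), also searched on both strands, were not found in these windows. A match is a description of letters and not of a bound site. Ttr, Hp and Trf had no entry in the table.

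The array of control mouse 1 stood apart across genes. That of stressed mouse 4 did not, but it stood apart for a marker of the large intestine. Across genes, control mouse 1 correlated with the other arrays at 0.918 to 0.947, against 0.975 to 0.995 among the others. Its ileal marker Fabp6, the bile acid-binding protein of ileal enterocytes, was at 7.88 on the log2 scale, against 13.88 to 13.93 in the other controls, and Car1, a carbonic anhydrase of the large intestine, was at 14.17. Stressed mouse 4 had Fabp6 at 13.95 but Car1 at 13.32, with Car1 in the other stressed mice at 4.95 to 7.41. Values below are given with and without control mouse 1. A measure of RNA integrity, the log2 ratio of 3′ over 5′ signal averaged for Actb and Gapdh, was 0.51 to 1.13 in stressed mice, highest in stressed mouse 1, and 0.45 to 0.63 in controls.

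Among the members, Ttr, Serpina1b and Cpn1 were higher in stressed ileum, whereas Rbp4, Alb, Hp and Cp overlapped between the groups. Without control mouse 1, the 5 stressed mice lay above all 4 controls for 3 of the 7 genes and overlapped with them for 4. With all 10 arrays they lay above all 5 controls for 2 of the 7, Ttr and Serpina1b. Over all genes measured, all stressed mice lay above all controls in 4.51% of genes without control mouse 1 and in 1.16% with it. They lay below all controls in 2.72% and 1.12%, and for 0 of the 7 genes in either comparison. Since the genes were picked from this contrast, nothing is read from these shares.

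**Figure D1:**
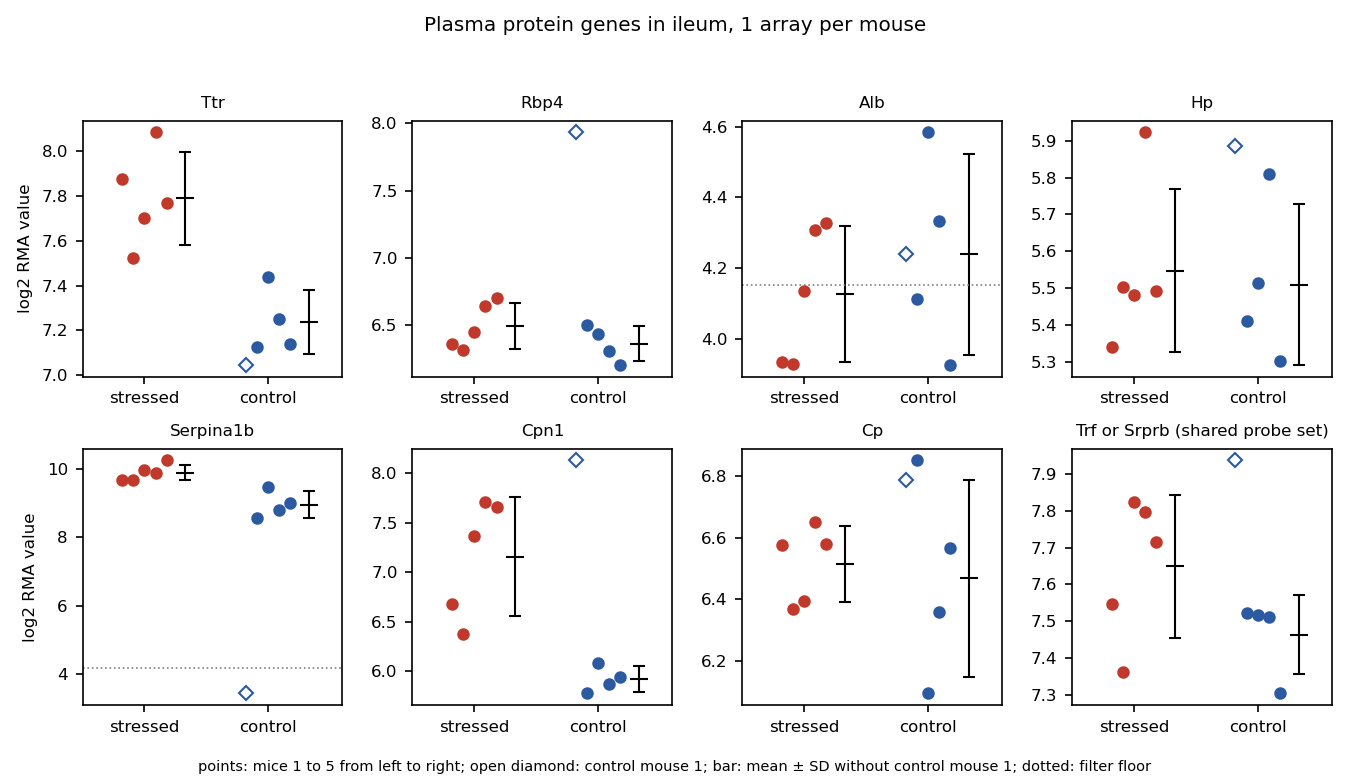
Log2 RMA values of 7 plasma protein genes and of the probe set shared by Trf and Srprb, with stressed mice at the left and control mice at the right of each panel. Each point is 1 mouse, the open diamond is control mouse 1, bars are mean ± SD without control mouse 1 (n = 5 stressed and 4 control mice), and the dotted line is the filter floor of 4.15. Stressed mice lie above controls for Ttr and Serpina1b, and for Cpn1 apart from control mouse 1.

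Of the carriers, Ttr, which encodes transthyretin, was at 7.87, 7.52, 7.70, 8.09 and 7.77 in stressed mice 1 to 5, against 7.04, 7.13, 7.44, 7.25 and 7.14 in control mice 1 to 5. The groups did not overlap, and control mouse 1, which was far from the others for other genes, was the lowest control by a small step here. The mean was 7.79 ± 0.21 (SD, n = 5) in stressed mice and 7.20 ± 0.15 (SD, n = 5) in control mice, a difference of 0.59 ± 0.11 (SE, log2, stressed minus control, as all differences here), and of 0.55 ± 0.11 (SE) without control mouse 1. Ttr has 4 probe sets above the floor, which gave unlike differences. In 3 of the 4 the groups were apart, with differences of 0.59, 0.69 and 0.85. Each of these 3 carries a suffix of probes that may cross-hybridise, so they are not taken as independent measurements. The remaining Ttr probe set, which carries no such suffix, was at 6.69 to 6.89 in stressed and 6.53 to 7.01 in control mice. Its difference was 0.10 with 10 arrays and 0.061 without control mouse 1. The cause of these unlike differences was not tested.

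Rbp4, the retinol carrier that travels in blood bound to transthyretin, was at 6.36, 6.32, 6.45, 6.64 and 6.71 in stressed mice, against 7.94, 6.50, 6.44, 6.31 and 6.21 in control mice. Control mouse 1 was above every other array, and the other controls lay within or just below the stressed range. The difference was -0.18 ± 0.28 (SE) with 10 arrays and 0.13 ± 0.10 (SE) without control mouse 1, so its sign rests on that mouse. In control mouse 1 the highest Rbp4 value thus came with the lowest Ttr value, although the proteins form a complex.

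Alb was barely above the filter floor, with a mean of 4.18 over the 10 arrays against a floor of 4.15. It was at 3.93, 3.93, 4.14, 4.31 and 4.33 in stressed mice, against 4.24, 4.11, 4.58, 4.33 and 3.93 in control mice. The groups overlapped, with a difference of -0.11 ± 0.13 (SE) with 10 arrays and -0.11 ± 0.14 (SE) without control mouse 1. A difference in Alb was not detectable at this signal, which lies at the floor.

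Hp, which encodes haptoglobin, an acute phase protein in the mouse, was at 5.34, 5.50, 5.48, 5.92 and 5.49 in stressed mice, against 5.89, 5.41, 5.51, 5.81 and 5.30 in control mice. The highest stressed value was that of mouse 4 and the highest control value that of mouse 1. The difference was -0.037 ± 0.14 (SE) with 10 arrays and 0.038 ± 0.13 (SE) without control mouse 1, far within the SD of 0.22 in either group of the 9 arrays.

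The probe set naming Trf, the transferrin gene, together with Srprb was at 7.55, 7.36, 7.83, 7.80 and 7.71 in stressed mice, against 7.94, 7.52, 7.52, 7.51 and 7.30 in control mice. Stressed mouse 2 lay among the controls and control mouse 1 above every stressed mouse. The difference of means was 0.091 with 10 arrays and 0.19 without control mouse 1, where the SD was 0.19 in stressed and 0.11 in control mice.

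Serpina1b, one of the alpha-1-antitrypsin genes, was at 9.70, 9.70, 9.97, 9.91 and 10.26 in stressed mice, against 3.42, 8.56, 9.48, 8.80 and 9.03 in control mice. Control mouse 1 lay below the filter floor of 4.15, while the other 9 mice had strong signal, and all stressed mice were above the highest control. Without control mouse 1 the mean was 9.91 ± 0.23 (SD, n = 5) in stressed and 8.97 ± 0.39 (SD, n = 4) in control mice, a difference of 0.94 ± 0.17 (SE). With 10 arrays the control mean was 7.86 ± 2.50 (SD, n = 5) and the difference 2.05 ± 0.96 (SE). The size of the difference with 10 arrays thus rests on control mouse 1.

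The second Serpina1b probe set was at 9.26 to 9.73 in stressed mice and at 8.04 to 8.93 in controls 2 to 5, with 3.32 in control mouse 1. Serpina1c was at 4.79, 5.38, 5.76, 5.30 and 5.98 in stressed mice, against 2.87, 4.17, 4.81, 4.84 and 4.66 in control mice, so that only stressed mouse 1 lay within the control range. Its difference was 1.17 with 10 arrays and 0.82 without control mouse 1. Probe sets that name several copies had lower signal. The one for Serpina1d and Serpina1a was at 1.94 to 2.91 in stressed and 1.53 to 2.11 in control mice, and the one for Serpina1e, Serpina1c and Serpina1b at 4.02 to 4.59 in stressed and 2.90 to 3.86 in control mice. All 5 Serpina1 probe sets had a higher mean in stressed mice and their lowest value in control mouse 1. Most of these probe sets carry the suffix of probes that may cross-hybridise, so they may read one another's transcripts. They are not taken as independent measurements, and the transcript sequences were not compared.

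Cpn1, the catalytic subunit of carboxypeptidase N, was at 6.68, 6.38, 7.37, 7.71 and 7.66 in stressed mice, against 8.13, 5.78, 6.09, 5.87 and 5.95 in control mice. Controls 2 to 5 lay close together and all stressed mice were above them, mice 3, 4 and 5 by more than mice 1 and 2. Without control mouse 1 the mean was 7.16 ± 0.60 (SD, n = 5) in stressed and 5.92 ± 0.13 (SD, n = 4) in control mice, a difference of 1.24 ± 0.25 (SE). Control mouse 1 was higher than every stressed mouse, and with it the difference was 0.80 ± 0.44 (SE). The second Cpn1 probe set lay below the floor and differed by 0.14 with 10 arrays and by 0.39 without control mouse 1. Control mouse 1 thus lay at the opposite end for the Serpina1 genes and for Cpn1.

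Cp, which encodes the copper-bound ferroxidase ceruloplasmin, was at 6.58, 6.37, 6.40, 6.65 and 6.58 in stressed mice, against 6.79, 6.85, 6.09, 6.36 and 6.57 in control mice. The stressed mice lay within the control range, with a difference of -0.018 ± 0.14 (SE) with 10 arrays and 0.046 ± 0.13 (SE) without control mouse 1. Its 8 probe sets, of which 6 were above the floor, differed by -0.21 to 0.26 without control mouse 1, 3 of them upward and 5 downward.

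**Figure D2:**
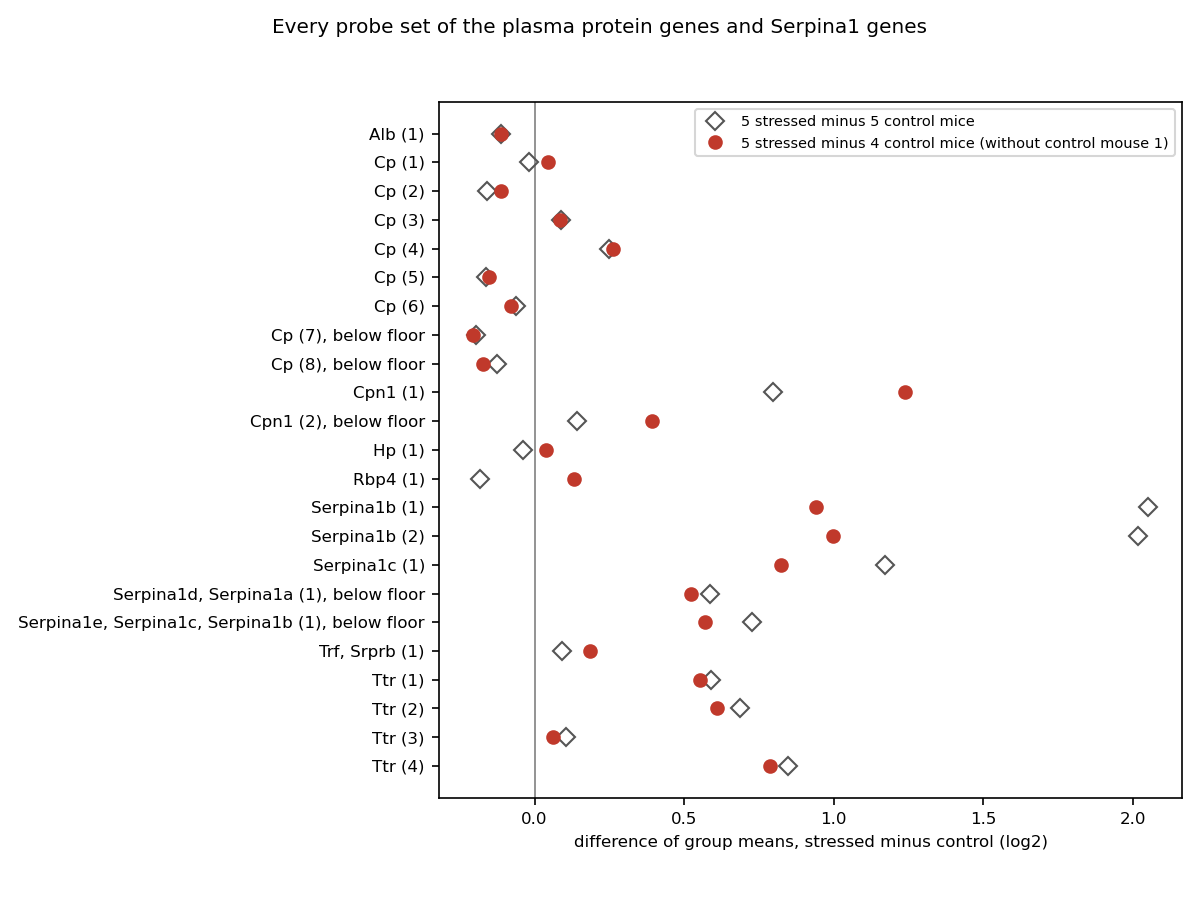
Difference of group means (stressed minus control, log2) for every probe set of the plasma protein genes and the Serpina1 genes, numbered within a gene by falling mean signal. Open diamonds are 5 stressed minus 5 control mice and filled circles 5 stressed minus 4 control mice, without control mouse 1. The third Ttr probe set stands near 0 beside 3 others between 0.55 and 0.85, and the Serpina1 probe sets are all above 0.

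Leaving out stressed mouse 4 in addition to control mouse 1 gave differences of 0.48 for Ttr, 0.94 for Serpina1b, 1.10 for Cpn1 and 0.097 for Rbp4. Every stressed mouse already lay above controls 2 to 5 for Ttr, Serpina1b and Cpn1. Leaving out 1 stressed mouse thus could not change their direction. The part of large intestine in these values was not tested.

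Markers of other tissues were measured beside these genes. Of 25 hepatocyte genes on the array that encode no secreted protein, 12 had a mean above the floor and 11 were below it on all 10 arrays, among them Cyp7a1 (bile acid synthesis), Slc10a1 (the hepatic bile acid importer), Cyp1a2, Tdo2 and Arg1. Several of the 12 others, such as Cps1 and Otc of the urea cycle, are also expressed by the small intestine. The mean of the hepatocyte list was 6.43 to 6.76 in stressed mice, against 5.91 to 7.04 in control mice and 6.75 to 7.04 without control mouse 1. Members of the list differed in both directions. Cyp2e1, a cytochrome P450 abundant in liver, was at 6.19, 7.15, 7.73, 8.04 and 7.85 in stressed mice, against 7.96, 6.91, 6.40, 6.76 and 6.25 in control mice. It was high in stressed mice 3 to 5 and in control mouse 1. Its difference was 0.54 ± 0.39 (SE) over 10 arrays and 0.81 ± 0.32 (SE) without control mouse 1, and it passed in neither. The part of liver tissue in the members' values was not tested.

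White fat genes were measured beside Cpn1 and Rbp4. Adipoq, the fat cell hormone adiponectin, was at 6.83, 7.51, 8.00, 8.38 and 8.28 in stressed mice, against 9.49, 7.74, 7.13, 7.62 and 6.08 in control mice. It was highest in control mouse 1 and next in stressed mice 4, 5 and 3, the mice with the highest Cpn1 values. The order did not hold throughout, since control mouse 2, with the lowest Cpn1 value, had more Adipoq signal than stressed mice 1 and 2. The mean of the 12 white fat genes measured (of 13 on the array, Lep being below the floor) was 6.92 to 7.51 in stressed and 6.60 to 8.15 in control mice, or 6.60 to 7.12 without control mouse 1. All 12 had a higher mean in stressed mice without control mouse 1 and 8 of 12 with it, against 56.2% and 50.9% of all genes, and 0 passed limma. In each comparison 2 of the 12 were higher at an unadjusted p under 0.05, against 11.4% of all genes without control mouse 1 and 3.86% with it. The part of fat in the values of Cpn1, Rbp4 and the probe set of Trf and Srprb was not tested.

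The list of small intestinal enterocyte genes, 18 of 18 of them above the floor, had a mean of 10.35 to 11.12 in stressed mice, against 7.76 in control mouse 1 and 10.46 to 10.57 in the other controls. Serpina1b followed these genes in being low in control mouse 1. The mean of the 8 large intestine and Hox genes measured, of 15 on the array, was 6.45 to 8.54 in stressed mice, with stressed mouse 4 highest. In controls it was 9.85 in mouse 1 and 6.65 to 6.92 in the others. The posterior gene Hoxd10 was at 4.46 in stressed mouse 4 and 2.34 to 2.99 in the other stressed mice, against 7.30 in control mouse 1 and 2.56 to 2.85 in the other controls. Hoxd9 was at 5.06 to 6.07 in stressed mice, highest in mouse 4, against 7.28 in control mouse 1 and 4.74 to 5.24 in the other controls. Hoxa13, Hoxb13 and Hoxd11 were below the floor on all 10 arrays. The pancreas list was at 5.89 to 6.10 in stressed and 5.85 to 6.86 in control mice, highest in control mouse 5. The macrophage list, with 9 genes measured of 11, was at 7.06 to 7.28 in stressed and 7.18 to 7.48 in control mice, the serosa list at 7.10 to 7.63 in stressed and 6.95 to 7.43 in control mice. Of 4 red cell genes on the array, 0 had a mean above the floor. How far these cell types take part in the members' differences was not tested.

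**Figure D3:**
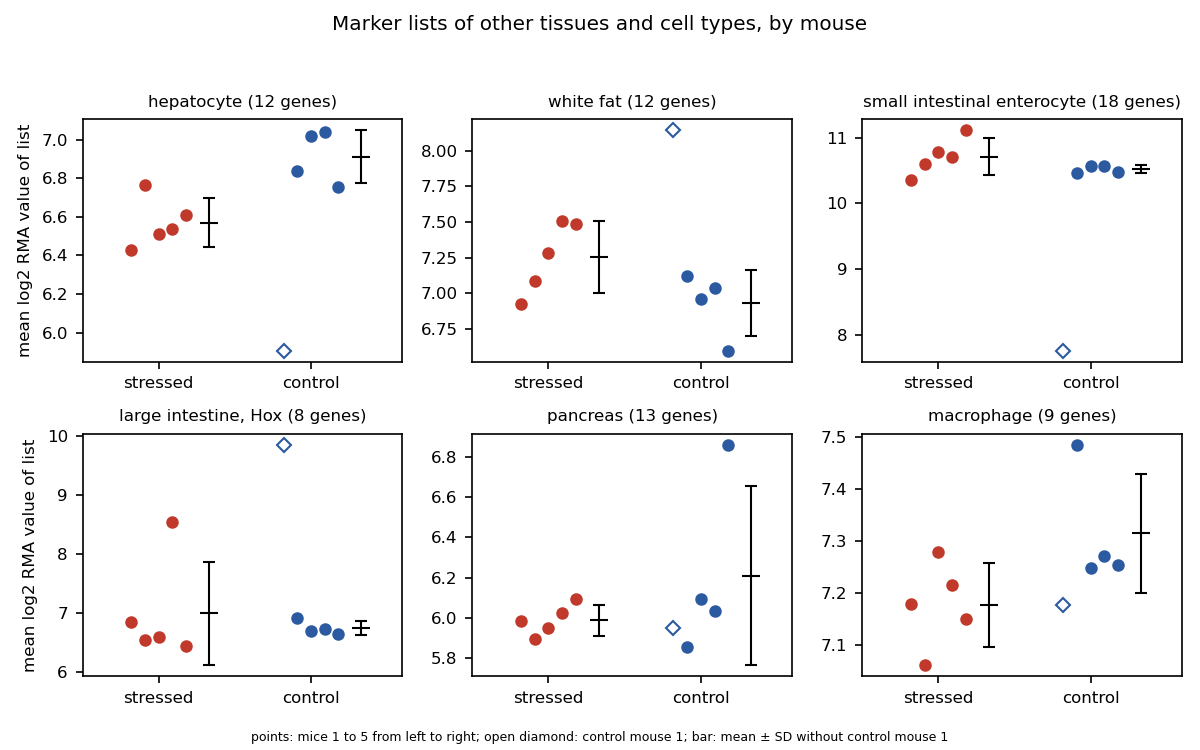
Mean log2 RMA value of marker lists, with stressed mice at the left and control mice at the right of each panel. Each point is 1 mouse, the open diamond is control mouse 1, and bars are mean ± SD without it (n = 5 stressed and 4 control mice). Hepatocyte genes are at 6.43 to 6.76 in stressed and 6.75 to 7.04 in control mice other than mouse 1, and white fat genes are highest in control mouse 1.

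In neither comparison did a further plasma protein gene pass as higher. Of 66 further plasma protein genes on the array, 24 were above the floor and 31 were below it on all arrays. With all 10 arrays, 8 of the 24 were higher and 16 lower in stressed mice, with a median difference of -0.032, and 0 of the 24 passed limma (threshold 0.05 after adjustment for all genes), as did 0% of all genes. At an unadjusted p under 0.05 there were 2 higher and 2 lower genes among the 24, against 3.86% and 3.96% of all genes (7.82% in sum). Without control mouse 1, 11 were higher and 13 lower with a median difference of -0.023, and 2 fell while 0 rose, against 0.534% of all genes that fell and 0.263% that rose (0.798% in sum). At an unadjusted p under 0.05, 3 were higher and 4 lower, against 11.4% and 6.56% of all genes (18% in sum). The median over all genes was 0.0031 with 10 arrays and 0.025 without control mouse 1.

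The genes that fell were Serpina10 and Cfi. Serpina10, the inhibitor of coagulation factor X that belongs to the same serpin clade as alpha-1-antitrypsin, was at 5.04, 5.49, 4.96, 4.91 and 5.21 in stressed mice, against 5.07, 5.89, 5.96, 5.96 and 6.25 in control mice. Controls 2 to 5 were above all stressed mice. Without control mouse 1 it fell by 0.90 ± 0.12 (SE; adjusted p = 0.0184, limma). With 10 arrays it differed by -0.71 ± 0.20 (SE; adjusted p = 0.404, limma). Serpina10 and Serpina1b thus differed in opposite directions in the same mice.

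Cfi, the complement factor I protease, was at 5.50, 5.91, 5.35, 5.19 and 5.45 in stressed mice, against 4.38, 6.81, 6.31, 6.77 and 6.40 in control mice. It fell by 1.09 ± 0.15 (SE; adjusted p = 0.0184, limma) in the 9 arrays that leave out control mouse 1, which was the lowest array. With 10 arrays it differed by -0.65 ± 0.40 (SE; adjusted p = 0.760, limma).

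Of the apolipoproteins, which the liver and the small intestine both secrete, 12 of 14 were measured. With 10 arrays 9 were higher and 3 lower, and without control mouse 1 8 were higher and 4 lower, with median differences of 0.19 and 0.044. Apoc2, the activator of lipoprotein lipase, was the 1 gene of these 12 that passed, without control mouse 1, against 0.798% of all genes. There it fell by 0.68 ± 0.13 (SE; adjusted p = 0.0361, limma). It was at 7.38, 7.45, 7.08, 7.50 and 7.82 in stressed mice, against 5.48, 8.26, 8.17, 8.10 and 7.98 in control mice, and differed by -0.15 ± 0.47 (SE) with 10 arrays.

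Receptors and partners of the encoded proteins changed in both directions. Of 23 genes measured, 15 were higher and 8 lower with 10 arrays (median 0.067), and 13 were higher and 10 lower without control mouse 1 (median 0.028). In the latter 1 rose and 2 fell, against 0.263% and 0.534% of all genes. The 2 include Ltf, which was measured only through the controls. Slc40a1, the iron exporter ferroportin that hands iron to transferrin, was at 9.18, 9.85, 8.95, 8.96 and 9.08 in stressed mice, against 10.98, 10.17, 9.90, 10.10 and 10.18 in control mice. Every stressed mouse was below every control, control mouse 1 included. It fell by 0.89 ± 0.17 (SE; adjusted p = 0.0365, limma) in the 9 arrays that leave out control mouse 1, and differed by -1.07 ± 0.22 (SE; adjusted p = 0.301, limma) over all 10 arrays.

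Ltf, the transferrin relative lactoferrin, was at 3.89 to 4.23 in stressed mice, against 3.59 in control mouse 1 and 4.42 to 4.92 in the other controls, close to the floor. Its stressed mean of 4.11 was below the floor of 4.15, with 3 of 5 stressed values under it, so Ltf was measured only through the controls and, although counted among the genes that passed, its difference is not read further. Cubn, the endocytic receptor cubilin whose ligands include albumin and transferrin, was at 11.01 to 11.27 in stressed mice, against 7.18 in control mouse 1 and 10.15 to 10.68 in the other controls. It rose by 0.70 ± 0.11 (SE; adjusted p = 0.0245, limma) in the 9 arrays that leave out control mouse 1. With 10 arrays Cubn differed by 1.35 ± 0.56 (SE) and did not pass.

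Genes that hepatocytes use and do not secrete also included 2 of 12 measured that fell without control mouse 1, against 0.534% of all genes. Tat, the tyrosine aminotransferase, was at 5.27, 5.90, 4.78, 5.36 and 5.01 in stressed mice, against 6.41, 6.74, 6.61, 5.93 and 7.15 in control mice, with no overlap. It fell by 1.34 ± 0.25 (SE; adjusted p = 0.0347, limma). Bhmt, which remethylates homocysteine, was at 4.65 to 6.67 in stressed mice, against 5.61 in control mouse 1 and 6.82 to 7.57 in the other controls, and fell by 1.85 ± 0.35 (SE; adjusted p = 0.0375, limma). With 10 arrays Tat differed by -1.30 ± 0.24 (SE) and Bhmt by -1.52 ± 0.44 (SE), and neither passed. The Bhmt call was also lost with array weights (adjusted p = 0.0545, limma) and with a trended robust prior (adjusted p = 0.0523, limma). Of the 12 measured hepatocyte genes, 6 were higher and 6 lower with 10 arrays and 3 were higher and 9 lower without control mouse 1 (medians 0.018 and -0.078).

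**Figure D4:**
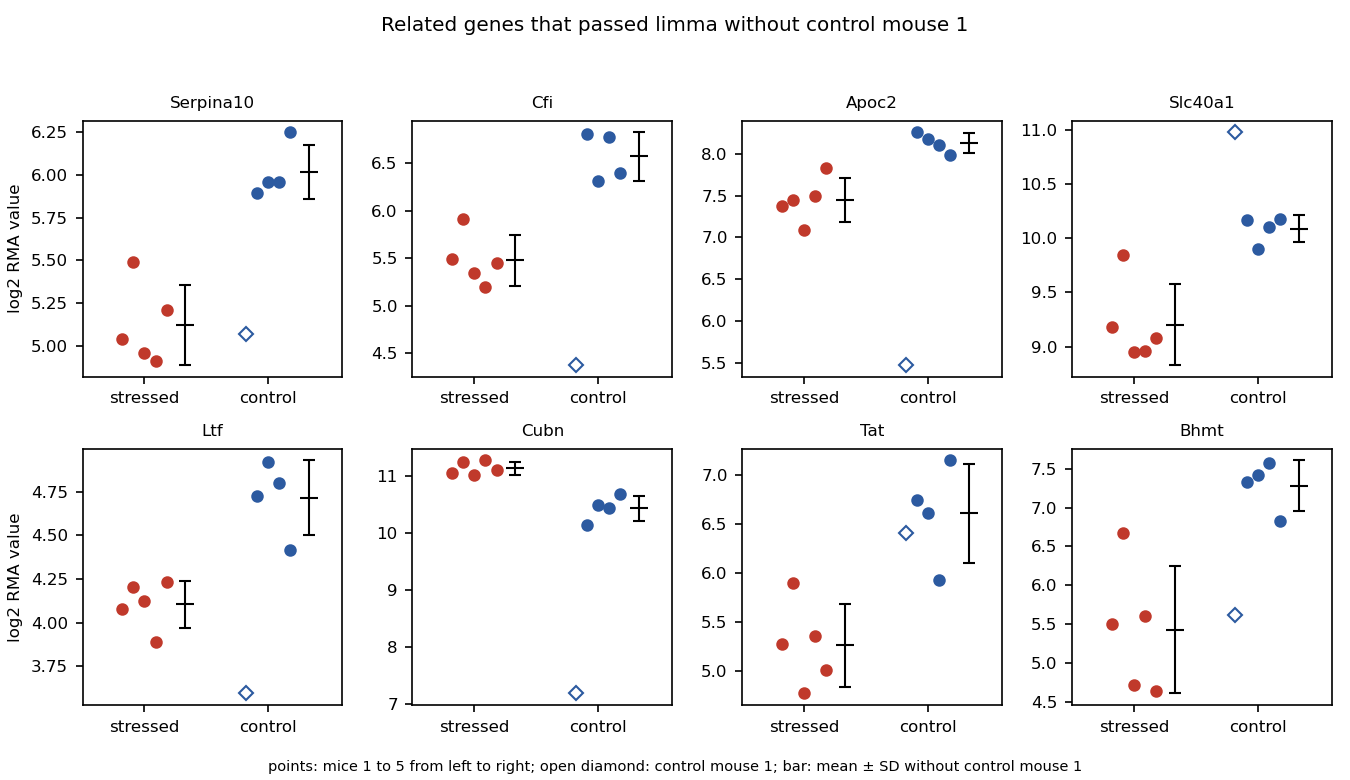
Log2 RMA values of 8 genes of the plasma protein, apolipoprotein, partner and hepatocyte lists that passed limma without control mouse 1, with stressed mice at the left and control mice at the right. Each point is 1 mouse, the open diamond is control mouse 1, and bars are mean ± SD without it (n = 5 stressed and 4 control mice). Cubn is higher and the others, apart from Ltf, are lower in stressed mice than in controls 2 to 5. Ltf was measured only through the controls and is not read.

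Genes that regulate liver-type transcription were measured for 17 of 19 factors on the array. With 10 arrays 10 were higher and 7 lower in stressed mice (median 0.078), and without control mouse 1 11 were higher and 6 lower (median 0.088). In both comparisons 0 passed limma. At an unadjusted p under 0.05 there was 1 of 17 with 10 arrays and 4 of 17 without control mouse 1, against 7.82% and 18% of all genes. Of 16 acute phase and interleukin 6 pathway genes measured, stressed mice had lower means for 10 over all arrays and for 11 without control mouse 1 (medians -0.22 and -0.28), and 0 passed. At an unadjusted p under 0.05, 0 were higher and 7 lower over all arrays, against 3.86% and 3.96% of all genes. Without control mouse 1, 1 was higher and 8 lower, against 11.4% and 6.56%. Among enteroendocrine genes, of interest here because islet and gut endocrine cells can express Ttr, 10 of 18 were higher with 10 arrays and 12 of 18 without control mouse 1 (medians 0.064 and 0.18). An unadjusted p under 0.05 was found for 4 higher and 0 lower genes over 10 arrays, against 3.86% and 3.96% of all genes, and for 6 higher and 1 lower without control mouse 1, against 11.4% and 6.56%.

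Gcg, the proglucagon gene of L cells, was at 10.33, 10.00, 9.95, 9.93 and 9.77 in stressed mice, against 9.68, 9.74, 9.54, 9.44 and 9.73 in control mice. All stressed mice were above all controls, as for Ttr, with a difference of 0.37 ± 0.11 (SE) with 10 arrays and 0.38 ± 0.11 (SE) without control mouse 1. The same held for Scg2, a secretory granule protein, which differed by 0.35 ± 0.10 (SE) with 10 arrays and 0.37 ± 0.10 (SE) without control mouse 1. Isl1, a transcription factor of endocrine cells, also had all stressed mice above all controls and differed by 0.41 ± 0.13 (SE) with 10 arrays and 0.30 ± 0.09 (SE) without control mouse 1. Of all genes, 1.16% had all stressed mice above all controls with 10 arrays and 4.51% without control mouse 1. The gut hormone genes Pyy and Nts overlapped between the groups in both comparisons. Pyy was at 9.34 to 9.43 in stressed and 9.26 to 9.70 in control mice. Nts was at 10.62 to 11.34 in stressed and 10.61 to 11.17 in control mice. None of Gcg, Scg2 and Isl1 passed. Their limma adjusted p was 0.407 to 0.446 over 10 arrays and 0.0976 to 0.123 without control mouse 1. Chga and Chgb, the chromogranin genes of the list, were instead highest in control mouse 1, at 9.22 and 11.89, where Ttr was lowest. They differed by -0.045 and 0.053 with 10 arrays and by 0.33 and 0.41 without control mouse 1. The part of endocrine cells in the Ttr values was not tested. Cck, the hormone cholecystokinin, was the 1 gene of that list of 18 that passed, against 0.798% of all genes without control mouse 1. It fell by 0.52 ± 0.09 (SE; adjusted p = 0.0301, limma) in the 9 arrays that leave out control mouse 1. Cck was at 5.49 to 5.86 in stressed mice, against 4.83 in control mouse 1 and 6.15 to 6.37 in the other controls. With 10 arrays it differed by -0.24 ± 0.25 (SE; adjusted p = 0.847, limma), so the call rests on leaving out control mouse 1.

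The remaining lists held 0 genes that passed. When control mouse 1 was left out, 13 of 18 enterocyte genes, 6 of 8 large intestine genes, 5 of 7 serosa genes, 3 of 13 pancreas genes and 2 of 9 macrophage genes were higher in stressed mice, against 56.2% of all genes. With 10 arrays the counts were 18 of 18, 3 of 8, 5 of 7, 4 of 13 and 2 of 9, against 50.9% of all genes. In all, 9 listed genes passed without control mouse 1 (1 rose and 8 fell), where 0.798% of all genes passed (0.263% rose and 0.534% fell). The 8 include Ltf, which was measured only through the controls. The lists were chosen with earlier results of these data known, so nothing is read from this count. When stressed mouse 4 was left out as well, 0 of the 9 passed, with limma adjusted p of 0.0541 to 0.102, and only 6 of 13666 genes passed in all.

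The genes whose values were most like those of the set were sought over the arrays. Likeness was the Pearson correlation of a gene with the mean of the 7 members' centred log2 values, given as a description over arrays that share the group difference. The mean is not the course of each member. Over 10 arrays Serpina1b correlated with Rbp4 at -0.872 and with Cpn1 at -0.324, and Cpn1 with Rbp4 at 0.707. Without control mouse 1 these were 0.532, 0.889 and 0.730. Over 10 arrays the closest were Epha1, an ephrin receptor (r = 0.957, Spearman rho = 0.952), Plcd1, a phospholipase C (r = 0.941), Nadsyn1, which makes NAD (r = 0.935), Zfyve9 (r = 0.926) and Pcdh9 (r = 0.920). Over the 9 arrays without control mouse 1 they were Epha1 (r = 0.976), Cyp2d26 (r = 0.974), Zfyve9 (r = 0.964), Fmo5 (r = 0.955) and Hsd3b2 (r = 0.955). Cyp2d26, a cytochrome P450, was at 9.37, 9.41, 10.03, 10.16 and 10.26 in stressed mice, against 10.64, 8.85, 9.28, 9.16 and 8.81 in control mice, with its highest value in control mouse 1, as for Cpn1. Fmo5, a flavin monooxygenase, was at 9.22 to 9.92 in stressed mice, against 8.70 to 9.30 in control mice.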

How the data were processed

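Transcript levels were measured in ileum of 5 stressed and 5 control mice, with 1 array per mouse. The authors deposited 1 table of log2 values for 45101 probe sets, for which the submitters' processing notes name RMA, a method of background correction, quantile normalization and summary per probe set. Its software is not given in the sources used; base 2 was taken from the range of the values (1.22 to 14.4). RMA forces the arrays to 1 distribution, so a change in total RNA cannot be seen and changes near background are understated. Precision is limited by how many arrays there are.

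Of the probe sets, 34945 named 1 gene, 932 several and 9160 none, and 64 were controls. The lowest 40 percent by mean over the 10 arrays were left out (floor 4.15), and each gene was read through its brightest probe set (13666 genes). Stressed and control mice were compared with limma 3.58.1 in R 4.3.3, with Benjamini-Hochberg adjustment over all genes and a threshold of 0.05, for 10 arrays and without control mouse 1. The fit was tried on simulated data with independent noise of the same spread on every array. Such data hold no outlying array like control mouse 1. Each array is labelled as a mouse of its own, so n counts mice. The members and the 14 gene lists were chosen with earlier results of these data known. Genes named from a list had passed in either comparison, were among the 4 smallest p in one, or were defining markers, and the 5 genes most like the set were named for each comparison. Upstream sequences came from RefSeq (GRCm38.p6).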

Additional observations from a re-analysis of the deposited data

Results flagged for a closer look

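Values that stood apart from their group by Dixon's test at the 95% level numbered 21 among 108 groups examined, and 15 of them were of control mouse 1. The groups overlapped, since controls were taken both with and without mouse 1. Some genes were included because they passed without control mouse 1, and others were markers already seen to differ in it. The 1 group in 20 that chance alone would mark is therefore no yardstick for these counts. Among the members, control mouse 1 was highest for Cpn1 (8.13, others 5.78 to 6.09) and Rbp4 (7.94, others 6.21 to 6.50). It was lowest for Serpina1b in both probe sets (3.42, others 8.56 to 9.48, and 3.32, others 8.04 to 8.93). Stressed mouse 4 was highest for Hp (5.92, others 5.34 to 5.50). Control mouse 5 was lowest for the probe set of Trf and Srprb among controls 2 to 5 (7.30, others 7.51 to 7.52).

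Control mouse 1 was also the lowest control for Cfi (4.38), Apoc2 (5.48), Cubn (7.18), Cck (4.83) and Fabp6 (7.88), and the highest for Slc40a1 (10.98), Car1 (14.17) and Aqp8 (7.50). Its list means were the lowest among controls for hepatocyte genes (5.91) and enterocyte genes (7.76), and the highest for large intestine genes (9.85). Stressed mouse 2 was highest among stressed mice for Slc40a1 (9.85). Stressed mouse 4 was highest among stressed mice for Aqp8 (7.26, others 4.15 to 4.44) and for the large intestine list mean (8.54). Control mouse 5 had the highest pancreas list mean (6.86).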

How the results depend on the processing

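With 10 arrays 0 genes passed. The count was 2 with the mean of all probe sets of a gene, 2 with arrays centred on their median, 41 with array weights, and 0 to 109 when single mice were left out, with 109 without control mouse 1. Of other plasma protein genes, 1 passed with array weights, and 0 to 2 when single mice were left out. The number of members lower in stressed mice was 4 with 10 arrays, 2 with array weights, and 1 to 4 when single mice were left out. Their median difference of -0.018 became 0.29 when the 60 percent of probe sets with the least signal were dropped, where Alb was no longer measured. Apoc2 with 10 arrays reversed to 0.012 without control mouse 2, within a range of -0.68 (without control mouse 1) to 0.012 over single mice left out. Without control mouse 1, the count of 109 genes (36 higher, 73 lower) was 242 with arrays centred on their median (44 higher, 198 lower), 169 with a trended and robust prior, and 6 to 154 when a further mouse was left out. It was 19, 16 and 58 without control mice 2, 3 and 4, and 32, 21, 6 and 14 without stressed mice 1, 3, 4 and 5. Of other plasma protein genes, 2 passed, 1 with the lowest 60 percent left out, and 0 to 3 when a further mouse was left out. Members lower numbered 1, and 0 with the lowest 60 percent left out, 3 with centred arrays, 2 with array weights, and 1 to 2 when a further mouse was left out. Centring moved the median of all genes to -0.029 with 10 arrays and to -0.040 without control mouse 1.

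With the replicate number as a block, 0 genes passed with 10 arrays and 95 without control mouse 1. Apoc2 (limma adjusted p = 0.0864), Ltf (0.0797), Tat (0.0572) and Cck (0.0639) no longer passed in the 9 arrays. There stressed mouse 1 was alone in its block, and the differences equalled those without that mouse (0.53 for Ttr and 1.36 for Cpn1 in both). Leaving out stressed mouse 1 with no block also ended these calls, so the effect of the block cannot be told apart from it. Same-numbered mice deviated together at correlations of -0.297 to 0.277, or of -0.134 to 0.111 without control mouse 1. The labels give no pairing, and these correlations cannot decide whether the numbers pair the mice. Array weights (0.0545) and a trended robust prior (0.0523) ended the call of Bhmt. Of 142 repeats for the 9 listed genes without control mouse 1, 54 lost the call and 0 reversed. Rbp4 turned sign, from -0.18 with 10 arrays to 0.13 without control mouse 1. The causes of these shifts were not tested.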
